A study of Arabidopsis thaliana with 8 samples.

Results

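The stomatal lineage regulators of the embryo described here are 10 genes taken by their identifiers from the 33602 gene models counted. They are SPCH, ICE1, SCRM2, TMM, SDD1, EPF2, BASL, POLAR, ER and ERL1. RNA sequencing was performed on the epidermis and the mesophyll of cotyledons of wild-type Arabidopsis thaliana embryos of accession Col-0, with 4 libraries for each tissue. Both tissues were laser-microdissected from paraffin sections of seeds of untreated greenhouse plants, and the embryos are called torpedo or linear stage in different places of the study. Each biological replicate is stated to have pooled sections from several siliques of a single plant, so a library holds many embryos, and the areas to cut were selected under the microscope. In such samples, fewer cells of a type and less RNA per cell cannot be told apart.

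Stomata are pores of the shoot epidermis, each framed by a pair of guard cells. They arise from protodermal cells that the bHLH factor SPEECHLESS (SPCH) commits to asymmetric division, as a dimer with ICE1 (also called SCREAM) or its paralogue SCRM2. Secreted peptides such as EPF2 bind receptor kinases of the ERECTA family (ER, ERL1 and ERL2), which act with the receptor-like protein TMM through the YDA and MAP kinase cascade to restrain SPCH. BASL and POLAR are proteins that gather at one side of the cell cortex before the asymmetric division. The subtilisin-like protease SDD1 limits stomatal number. The later bHLH factors MUTE and FAMA drive the steps that end in guard cells. The embryo itself carries no mature stomata, which form after germination. SPCH expression and the patterning of stomatal precursors are known to begin in the embryo.

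The sequences upstream of 3 members are shown because the levels of these genes were above mesophyll in every epidermis library and because their 250 bases before the annotated start held motifs that were searched for. Capitals mark the L1 box (TAAATGTA or TAAATGCA), a motif known to be bound by the protodermal factors ATML1 and PDF2, and the E box CANNTG, a motif of bHLH factors. Both strands were searched. Sequences are from the RefSeq TAIR10.1 assembly, 5′ to 3′ on the strand of the gene: TMM from chr1:30129650-30129899 (minus strand), BASL from chr5:24489837-24490086 (minus strand) and EPF2 from chr1:12472618-12472867 (plus strand).
TMM: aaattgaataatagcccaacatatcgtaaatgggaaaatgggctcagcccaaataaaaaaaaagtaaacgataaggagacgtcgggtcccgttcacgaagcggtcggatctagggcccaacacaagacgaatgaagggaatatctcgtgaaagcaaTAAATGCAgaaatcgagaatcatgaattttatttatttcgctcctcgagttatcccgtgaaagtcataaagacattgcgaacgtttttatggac
BASL: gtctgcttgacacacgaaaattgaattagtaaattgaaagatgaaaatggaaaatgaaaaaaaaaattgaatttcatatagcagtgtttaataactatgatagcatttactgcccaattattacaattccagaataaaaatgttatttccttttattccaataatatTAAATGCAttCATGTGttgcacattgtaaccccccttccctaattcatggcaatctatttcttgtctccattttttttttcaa
EPF2: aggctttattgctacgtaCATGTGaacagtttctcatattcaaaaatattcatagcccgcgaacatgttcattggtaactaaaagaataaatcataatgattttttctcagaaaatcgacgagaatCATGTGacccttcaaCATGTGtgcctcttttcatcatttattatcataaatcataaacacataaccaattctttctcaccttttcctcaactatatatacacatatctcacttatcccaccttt
The L1 box lay in the windows of TMM and BASL, starting 94 and 83 bases before the annotated start, which is 2 of 10 members. It was found in 4.51% of the 26711 windows of the same length before protein-coding genes. An E box was in the windows of 4 members (SDD1, EPF2, BASL and POLAR), against 55.3% of all windows, and EPF2 held 3 of them. The G box CACGTG, a subset of the E box, was in none of the 10 windows and in 6.58% of all. The windows of SPCH, ICE1, SCRM2, ER and ERL1 held none of these letters. A match is a description of the sequence, not a site of binding.

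Between 27676412 and 36685627 read pairs were counted per library, and levels of single genes are given as TMM-scaled CPM, that is counts per 1e6 pairs after correction for library composition. Protoderm markers followed the tissue labels, with a summed level of 3583 to 6421 CPM in epidermis and 259 to 734 CPM in mesophyll over 10 genes. Photosynthesis genes went the other way, with 19689 to 29633 CPM in epidermis and 34595 to 38890 CPM in mesophyll over 10 genes. Endosperm markers were also higher in epidermis, with 239 to 346 CPM against 18.6 to 73.2 CPM in mesophyll over 13 genes, of which PHE1 and AGL36 were at 0 in all libraries. The summed level of 10 seed coat genes was 23.4 to 73.1 CPM in epidermis and 8.36 to 19.5 CPM in mesophyll. Only 3 of the 10, MUM4, NARS1 and GL2, reached 1 CPM in at least 4 libraries. They averaged 16.5, 14.1 and 9.69 CPM in epidermis and 7.02, 0.0169 and 1.13 CPM in mesophyll. MUM2 and AHA10 went the other way, MUM2 with 0, 1, 1 and 0 read pairs in epidermis and 0, 331, 56 and 27 in mesophyll. In 2-sided exact permutation tests each of these 4 sums had p = 0.0286, the smallest that 70 arrangements allow, and an adjusted p of 0.0357 over 5 lists. The lists were chosen with earlier results of these data known. The study had already reported some of their genes, such as ATML1, PDF2 and MYB118, as higher in epidermis in these libraries. The tests are therefore not independent of how the lists were made. From MYB118, the study proposes that endosperm probably contaminated its epidermis samples, and it calls its data epidermis-enriched rather than strictly epidermal. The part of endosperm and seed coat RNA in the values that follow was not tested.

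The transcription factors of the lineage were an initiator with higher levels in each epidermis library and a pair of partners whose tissue ranges overlapped. SPCH (AT5G53210, chromosome 5, 21586219 to 21589255, minus strand, TAIR10.1) is the factor that starts the lineage. It was measured at 15.5, 28.6, 8.02 and 25.9 CPM in epidermis replicates 1 to 4 and at 3.38, 5.59, 0.0995 and 6.56 CPM in mesophyll. Every epidermis library was above every mesophyll library, and mesophyll replicate 3 was almost empty with 3 read pairs. The log2 fold change of epidermis over mesophyll was 2.92 (SE 0.87), and SPCH was not called by the edgeR quasi-likelihood test (adjusted p = 0.197, unadjusted p = 0.00944). The same mesophyll replicate 3 also had the lowest protoderm sum (259 CPM) and the lowest endosperm sum (18.6 CPM) of its tissue, and without replicate 3 the log2 fold change of SPCH was 2.17.

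ICE1 (AT3G26744, chromosome 3, 9832667 to 9835279, minus strand) was the most abundant member. ICE1 is also known from cold tolerance and as a partner of the endosperm bHLH factor ZOU. Its levels were 406, 410, 391 and 343 CPM in epidermis and 364, 326, 371 and 422 CPM in mesophyll. The ranges overlapped, and the log2 fold change was 0.07 with a 95% interval from -0.31 to 0.44 (edgeR adjusted p = 0.929). ZOU itself, in the same libraries, averaged 12.1 ± 8.68 CPM in epidermis and 0.357 ± 0.541 CPM in mesophyll (SD, n = 4 each).

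SCRM2 (AT1G12860, chromosome 1, 4384304 to 4386651, plus strand), the paralogue of ICE1, had 55.4, 83.0, 61.9 and 87.2 CPM in epidermis and 75.0, 98.8, 79.6 and 90.5 CPM in mesophyll. It was the only member with a negative log2 fold change, of -0.28 with a 95% interval from -0.72 to 0.17 (edgeR adjusted p = 0.686). The ranges of its levels overlapped.

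**Figure D1:**
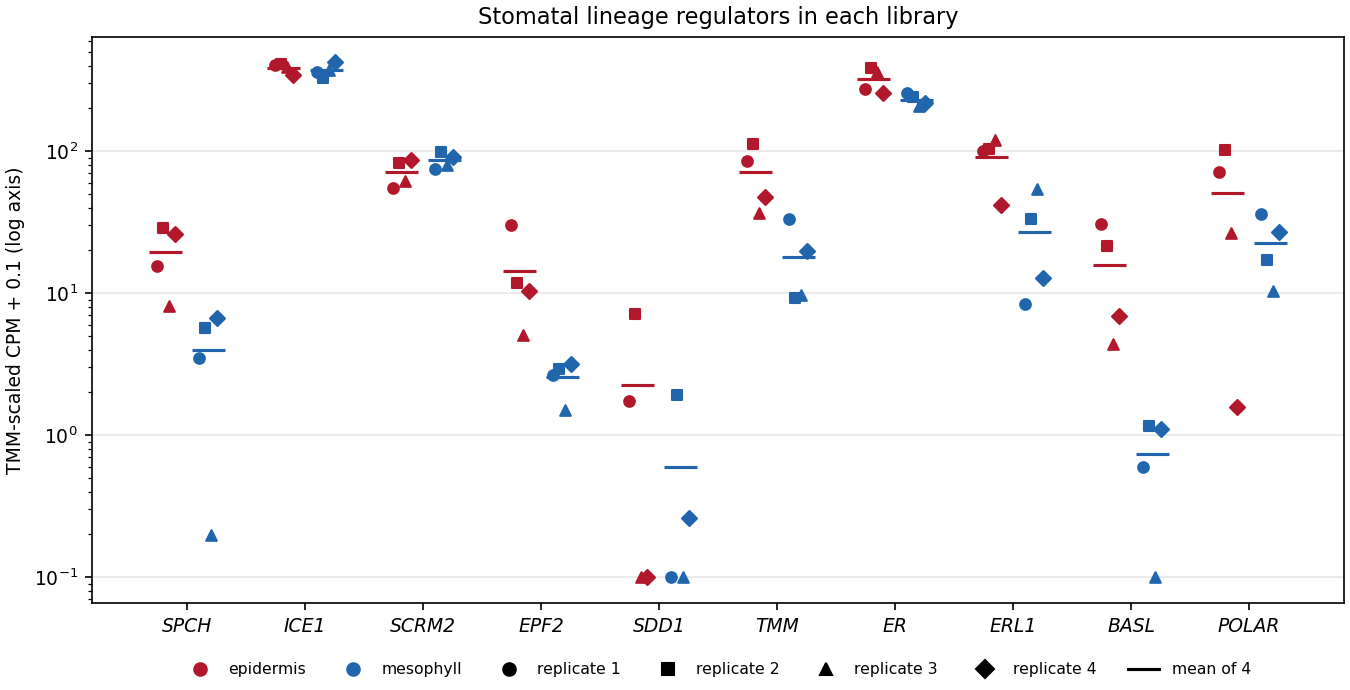
Level of each of the 10 stomatal regulators in each library, as TMM-scaled CPM plus 0.1 on a log axis, with epidermis in red to the left of mesophyll in blue, point shapes for replicates 1 to 4 and a line at the mean of 4. SPCH, EPF2, TMM, ER and BASL do not overlap between the tissues, while ICE1 and SCRM2 overlap.

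Among the signals, the peptide gene EPF2 was higher in each epidermis library and the protease gene SDD1 was detected in some libraries of each tissue and had no pair in others. EPF2 (AT1G34245, chromosome 1, 12472868 to 12473974, plus strand) encodes the secreted peptide that restrains entry into the lineage. It stood at 30.1, 11.8, 5.0 and 10.3 CPM in epidermis and at 2.56, 2.81, 1.39 and 3.09 CPM in mesophyll. The tissues did not overlap, and epidermis replicate 1 was well above the other 3. The log2 fold change was 2.28 with a 95% interval from 0.57 to 3.99 (edgeR adjusted p = 0.248). SDD1 (AT1G04110, chromosome 1, 1061297 to 1063809, minus strand) had 56, 196, 0 and 0 read pairs in epidermis and 0, 62, 0 and 5 in mesophyll. With pairs in 2 epidermis and 2 mesophyll libraries, SDD1 was the only member that did not pass the filter of 1 CPM in at least 4 libraries. A library with no pair was below 3 pairs, which is 0.0878 to 0.107 TMM-scaled CPM, and this limit covers counting error only.

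The receptor genes had higher mean levels in epidermis, by unequal folds whose differences were tested only as the ratios given further on. TMM (AT1G80080, chromosome 1, 30127819 to 30129649, minus strand), the receptor-like protein that tunes ER-family signalling in the stomatal lineage, was at 85.8, 113, 36.8 and 47.4 CPM in epidermis. In mesophyll it was at 33.2, 9.18, 9.65 and 19.7 CPM. The lowest epidermis library lay just above the highest mesophyll library, and the log2 fold change was 2.02 with a 95% interval from 1.03 to 3.0 (edgeR adjusted p = 0.0782).

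ERL1 (AT5G62230, chromosome 5, 24996129 to 25002439, plus strand), a receptor kinase known to act at later steps of the lineage as well, was at 101, 104, 119 and 42.0 CPM in epidermis. In mesophyll its levels were 8.24, 33.0, 54.4 and 12.7 CPM. Epidermis replicate 4 fell below mesophyll replicate 3, so the ranges overlapped. Epidermis was higher within each replicate number, but the labels tie no number to a plant or date. The log2 fold change was 2.0 with a 95% interval from 1.06 to 2.94 (edgeR adjusted p = 0.0716), the smallest adjusted p of the members in this fit. Without replicate number in the model the edgeR adjusted p of ERL1 was 0.157, and that of TMM was 0.0643.

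ER (AT2G26330, chromosome 2, 11208080 to 11214662, minus strand), which also shapes organ growth throughout the shoot, was at 276, 386, 362 and 259 CPM in epidermis and 255, 241, 207 and 218 CPM in mesophyll. The tissues did not overlap, but by a narrow margin, and the log2 fold change was 0.46 with a 95% interval from 0.05 to 0.88 (edgeR adjusted p = 0.351). For each member except POLAR and ERL1, the annotated exons overlap no other gene. The exons of ERL1 share 82 bases with AT5G62240, which was at 0 to 1.61 CPM over the 8 libraries. Libraries were not stranded, so reads of overlapping genes cannot be told apart there.

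The polarity genes varied widely between libraries of the same tissue. BASL (AT5G60880, chromosome 5, 24488289 to 24489836, minus strand), a cortical polarity protein of asymmetrically dividing cells, was at 30.9, 21.3, 4.28 and 6.79 CPM in epidermis and 0.497, 1.05, 0 and 0.997 CPM in mesophyll. It was close to absent from mesophyll, with 81 read pairs in all against 1985 in epidermis. Its log2 fold change of 5.05 (SE 1.21) was the largest of the members, and its edgeR adjusted p was 0.113. POLAR (AT4G31805, chromosome 4, 15385280 to 15387097, plus strand), a scaffold that localises with BASL, was at 71.6, 103, 26.5 and 1.48 CPM in epidermis and 36.0, 17.0, 10.2 and 27.1 CPM in mesophyll. Epidermis replicate 4 was below every mesophyll library and the other 3 epidermis libraries were at or above 26.5 CPM. The log2 fold change was 0.67 with a 95% interval from -1.69 to 3.04 (edgeR adjusted p = 0.882). It was 1.64 without replicate 4 and -0.17 without replicate 2. The exons of POLAR share 310 bases with AT4G31810, which was at 36.7 to 41.3 CPM in epidermis and 26.3 to 44.0 CPM in mesophyll.

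**Figure D2:**
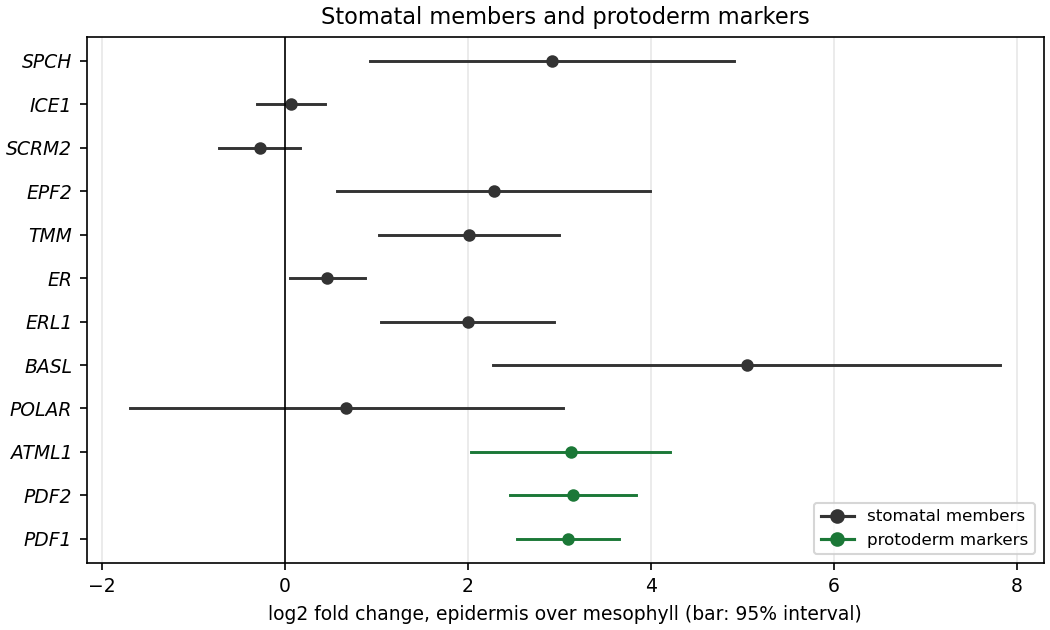
Log2 fold change of epidermis over mesophyll with its 95% interval from the edgeR quasi-likelihood fit, for the 9 stomatal members tested (black) and the protoderm markers ATML1, PDF2 and PDF1 (green). The intervals of ICE1 and SCRM2 are narrow and include 0. Those of SPCH, EPF2, TMM, ER, ERL1 and BASL lie above 0 before adjustment for the number of genes tested, that of ER only just.

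None of the 9 members tested passed the edgeR quasi-likelihood test at an adjusted p of 0.05 over 15794 genes, where 0.981% of all genes were called higher in epidermis, 0.101% lower and 1.08% in either direction. Without the replicate block none was called either, against 1.75% of all genes higher and 0.538% lower. At an unadjusted p under 0.05, 6 members were higher in epidermis (SPCH, EPF2, TMM, ER, ERL1 and BASL), against 6.39% of all genes, and none was lower, against 5.43%. The likelihood ratio test, the kind of test the study used, called SPCH, TMM, ERL1 and BASL higher (adjusted p of 0.0173, 0.000528, 0.000284 and 0.000381), against 3.53% of all genes, and none lower, against 1.67%. These are calls of the fit made here. The study's table of transcription factors differentially expressed in epidermis does not list SPCH, and the reason was not tested. DESeq2 and a bias-adjusted quasi-likelihood fit, the second of them chosen after the data were seen, each called these 4 and EPF2 higher, against 4.98% of all genes with DESeq2 and 2.99% with the bias-adjusted fit. With a filter of 10 CPM TMM and ERL1 were called higher, against 1.85% of the genes then tested, and with no filter ERL1 alone, against 0.931%. The median log2 fold change of the 9 members was 2.0, beside -0.04 over all genes tested. In 5 of the 10 members (SPCH, EPF2, TMM, ER and BASL) every epidermis library was above every mesophyll library, which held for 5.5% of all genes tested.

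Per length of the gene model, the members spanned a wide range of levels. In epidermis the order of mean levels in CPM per kilobase was ICE1 (189), ER (101), TMM (44.6), SCRM2 (36.4), POLAR (35.7), ERL1 (27.7), EPF2 (23.5), SPCH (17.8), BASL (14.0) and SDD1 (0.926). ICE1 and ER, ER and TMM, and BASL and SDD1 were separated over the 4 libraries, and the other neighbours in this order overlapped. In mesophyll the order was ICE1 (181), ER (72.2), SCRM2 (43.5), POLAR (16.0), TMM (11.3), ERL1 (8.18), EPF2 (4.05), SPCH (3.57), BASL (0.565) and SDD1 (0.212). Neighbours were separated there only down to POLAR. By this length-scaled level SPCH was above 59.9% of the genes tested in epidermis and above 18.5% in mesophyll, and BASL above 52.3% and 1.88%. ICE1 was above 95.5% in epidermis and 95.2% in mesophyll.

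Proportions between partner genes within a library do not depend on scaling and were compared next. The ratio of ICE1 to SCRM2 read pairs was 7.34, 4.93, 6.32 and 3.94 in epidermis and 4.85, 3.30, 4.66 and 4.66 in mesophyll, and the log2 ratio differed by 0.34 (2-sided exact permutation p = 0.200). The ratio of ER to ERL1 was 2.73, 3.71, 3.04 and 6.16 in epidermis and 30.9, 7.30, 3.8 and 17.2 in mesophyll. Its log2 value averaged 1.89 ± 0.52 in epidermis and 3.46 ± 1.33 in mesophyll (SD, n = 4 each), a difference of -1.57 (2-sided exact permutation p = 0.0571, adjusted p = 0.0857 over the 3 ratios). Without replicate 1, whose mesophyll library had the ratio of 30.9, the difference was -0.92. The log2 ratio of TMM to ER averaged -2.30 ± 0.75 in epidermis and -3.89 ± 0.82 in mesophyll (SD, n = 4 each), a difference of 1.58 with the same exact p of 0.0571. None of the 3 ratios passed, and the tissues overlapped in each of them. For ER over ERL1 the overlap was at epidermis replicate 4 and mesophyll replicate 3. For TMM over ER the log2 ratio of epidermis replicate 3 (-3.30) lay below that of mesophyll replicate 1 (-2.94). Per length, ER held 68.3 ± 3.01% of the ER, ERL1 and ERL2 level in epidermis and 83.0 ± 5.06% in mesophyll (SD, n = 4 each). The longest run of bases shared by the annotated transcripts was 44 for ICE1 and SCRM2, 31 for ERL1 and ERL2 and 20 for ER and ERL1.

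**Figure D3:**
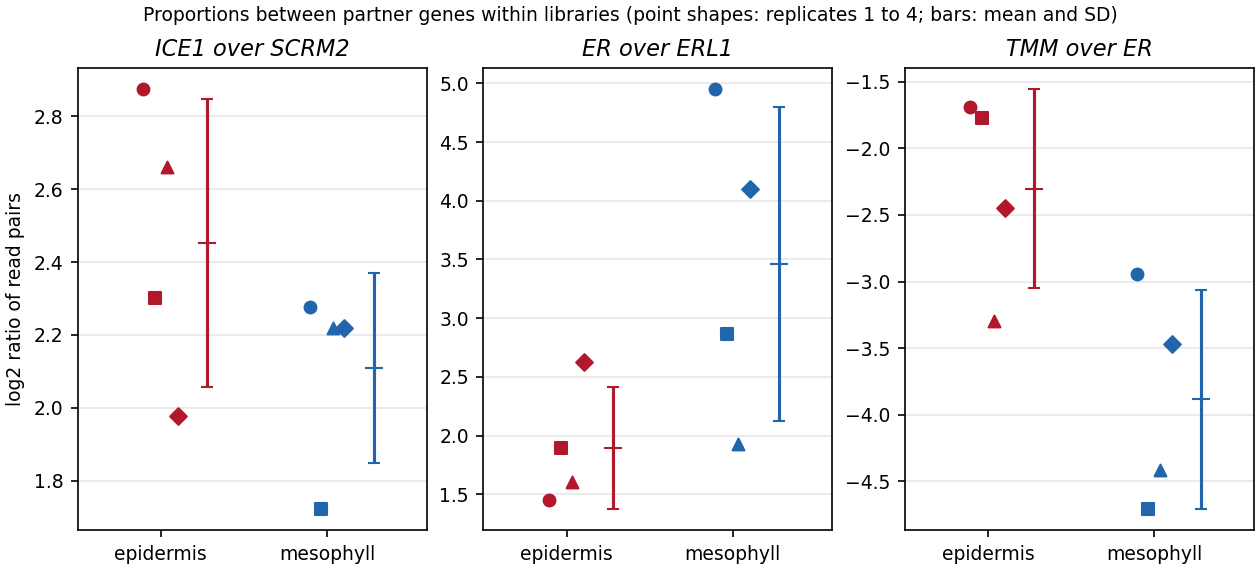
Log2 ratio of read pairs of ICE1 over SCRM2, ER over ERL1 and TMM over ER in each library, epidermis in red to the left of mesophyll in blue, with the mean and SD of 4 beside the points. ER over ERL1 averages 1.89 in epidermis and 3.46 in mesophyll, with 1 overlapping library on each side.

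The remaining genes of the pathway showed no common direction. Of 26 other stomatal pathway genes 21 were tested, 12 had a positive and 9 a negative log2 fold change, and the median was 0.32. None was called by the edgeR quasi-likelihood test, where 1 of 21 was higher and 1 lower at an unadjusted p under 0.05, close to the 6.39% and 5.43% of all genes. The likelihood ratio test and DESeq2 each called these 2, where the likelihood ratio test called 3.53% of all genes higher and 1.67% lower and DESeq2 4.98% and 3.38%. The bias-adjusted fit called only the lower one, against 1.02% of all genes. The higher one was ERL2, a further ERECTA-family receptor, which was at 55.7, 51.7, 53.9 and 83.5 CPM in epidermis and 43.8, 25.4, 7.13 and 13.4 CPM in mesophyll. Its tissues did not overlap, and the log2 fold change was 1.73 with a 95% interval from 0.63 to 2.84 (edgeR adjusted p = 0.171). The lower one was EPFL9 (STOMAGEN), the peptide known to be made in mesophyll and to promote stomata against EPF2. EPFL9 was at 22.6, 4.81, 10.6 and 8.00 CPM in epidermis and at 33.8, 28.7, 34.2 and 55.1 CPM in mesophyll. All mesophyll libraries were above all epidermis libraries, which held for 4.51% of all genes tested (log2 fold change -1.92, SE 0.47, edgeR adjusted p = 0.123).

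Components of the MAP kinase cascade and of the brassinosteroid branch were detected in both tissues and none was called. The MAPKK kinase YDA averaged 38.1 ± 18.2 CPM in epidermis and 23.5 ± 5.90 CPM in mesophyll, and MPK6 79.6 ± 15.1 against 56.7 ± 8.48 CPM (SD, n = 4 each). MPK3 was at 0.15, 58.7, 15.5 and 12.0 CPM in epidermis and 16.2, 19.0, 16.7 and 20.1 CPM in mesophyll, so epidermis replicates 1 and 2 lay on either side of all the others. The GSK3-like kinase BIN2, which phosphorylates YDA and SPCH and is held by POLAR at the cortex, averaged 86.6 ± 37.6 CPM in epidermis and 54.5 ± 8.39 CPM in mesophyll. The co-receptors SERK1, SERK2 and BAK1 had log2 fold changes of -0.36, 0.27 and 0.56 with edgeR adjusted p from 0.803 to 0.893. BRXL2, a partner of BASL at the cortex, averaged 30.8 ± 15.8 CPM in epidermis and 17.1 ± 3.05 CPM in mesophyll (edgeR adjusted p = 0.738).

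**Figure D4:**
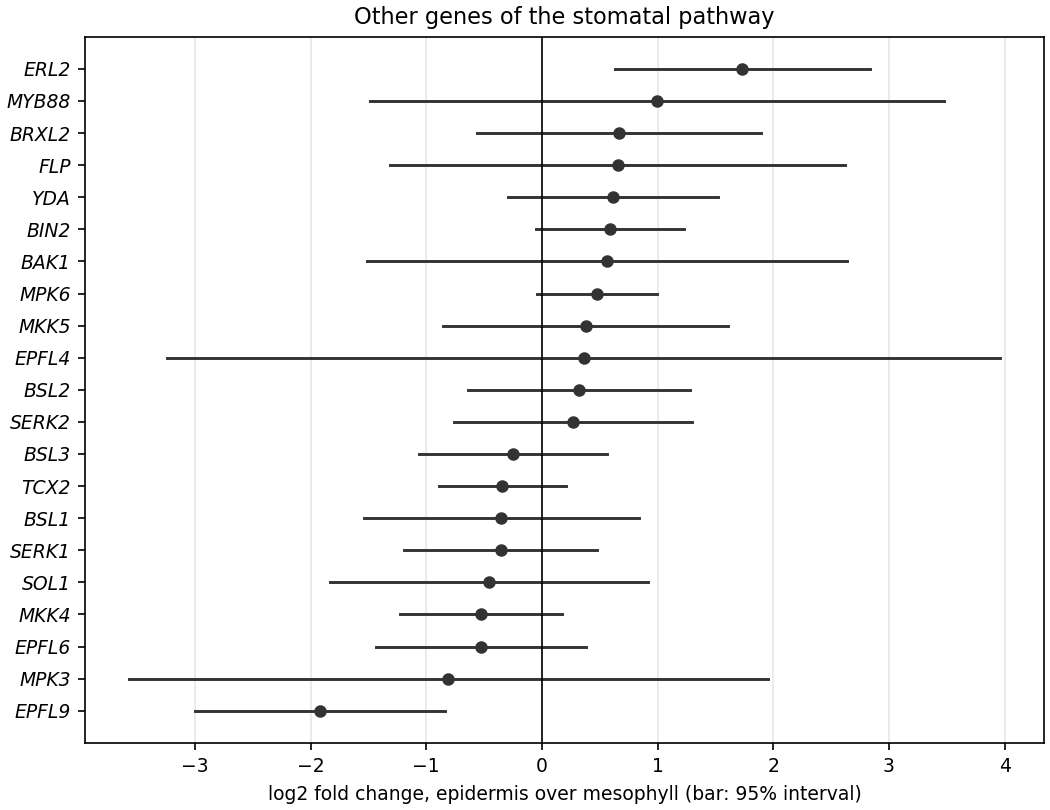
Log2 fold change of epidermis over mesophyll with its 95% interval from the edgeR quasi-likelihood fit, for the 21 other stomatal pathway genes tested, sorted by value. ERL2 stands at 1.73 and EPFL9 at -1.92, and the intervals of the remaining 19 include 0.

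Of the genes of later steps, MUTE, FAMA and EPF1 had no read pair in most epidermis libraries, while the MYB factors FLP and MYB88, which limit the last division, passed the filter. FLP averaged 13.95 ± 7.62 CPM in epidermis and 9.40 ± 8.21 CPM in mesophyll, and MYB88 7.52 ± 6.87 against 4.06 ± 3.09 CPM (SD, n = 4 each, edgeR adjusted p of 0.861 and 0.820). MUTE, which ends the amplifying divisions, had 1 read pair in 1 of 8 libraries. EPF1, the peptide that spaces later precursors, had no pair in epidermis and 15 pairs in mesophyll replicate 3 alone. FAMA, which specifies the guard cell fate, had no pair in epidermis and 92, 2, 0 and 2 pairs in mesophyll. Of 7 mature guard cell genes only SCAP1 passed the filter, with 15.2 ± 8.26 CPM in epidermis against 11.1 ± 7.48 CPM in mesophyll (SD, n = 4 each, edgeR adjusted p = 0.917). The potassium channel gene KAT1 had 0, 71, 80 and 1 read pairs in epidermis and none in mesophyll. The guard cell factor MYB60 and the kinase HT1 had at most 23 and 1 pairs in any library, and the guard cell gene GC1 had none. The anion channel gene SLAC1 had 9, 21, 139 and 5 pairs in epidermis and 0, 8, 2 and 3 in mesophyll. The myrosinase gene TGG1, a guard cell gene also known from myrosin cells, had 14, 0, 0 and 1 read pairs in epidermis and 506, 5295, 0 and 2468 in mesophyll. The summed level of the 7 genes was 10.2 to 25.6 CPM in epidermis and 17.3 to 173 CPM in mesophyll, and the 2-sided exact permutation p was 0.257. The earlier genes SPCH, TMM, EPF2 and BASL had read pairs in every epidermis library, and so did FLP, MYB88, SCAP1 and SLAC1. SDD1 had pairs in only 2 epidermis libraries, so presence in epidermis did not divide the genes by step.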

How the data were processed

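Expression was measured by paired-end RNA sequencing of 4 epidermis and 4 mesophyll libraries, made from poly(A) RNA with a SMART-Seq v4 kit, without strand information or molecular identifiers. The study states a picogram input of total RNA, and an RNA integrity number somewhat lower in epidermis than in mesophyll. The part of input and RNA integrity in the differences between libraries and tissues was not tested. The authors trimmed reads, removed ribosomal reads with sortMeRNA, aligned them with Bowtie2 to TAIR10 representative gene models and deposited raw counts of read pairs per model, without reads that matched a second model equally well. The submitters' processing notes also name TopHat2. The deposited counts of reads taken singly were used only as an alternative.

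Counts were analysed in R 4.3.3 with edgeR 4.0.16. The 15794 genes that reached 1 CPM in 4 or more of the 8 libraries were scaled by TMM, and the model held tissue and, as a block, replicate number, since the study modelled harvest date. The legacy quasi-likelihood F test was adjusted by Benjamini-Hochberg, with calls at 0.05. The SE is the log2 fold change over the square root of F. The fit was tested on simulated data. The labels tie no number to a plant or date, and the correlation between the residuals of libraries with a shared number was 0.0102, -0.0019, 0.0702 and -0.0102, too low to show pairing. Depth was 27676412 to 36685627 pairs. Ratios used counts plus 0.5. Exact permutation tests covered 70 arrangements. Of 33602 identifiers 97.7% matched TAIR10.1, which gave positions and sequences. DESeq2 1.42.0 and other settings were alternatives. The members and gene lists were chosen with earlier results of these data known. Named genes were the 10 members, the other stomatal and guard cell lists, 7 tissue markers (ATML1, PDF2, PDF1, ZOU, ALE1, SUC5 and MYB118) and the 5 genes most correlated with the members. PHE1, AGL36, KRS, FIS2, AGL62, IKU2, MINI3, MUM4, NARS1, GL2, MUM2, AHA10 and TGG2 were named after their values were seen.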

Additional observations from a re-analysis of the deposited data

Results flagged for a closer look

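SDD1 in mesophyll replicate 2, at 1.81 CPM, stood far from the other mesophyll libraries, which were at 0, 0 and 0.16 CPM. The gap was 0.911 of the range of the group, above Dixon's 95% critical value for 4 libraries. It was the only one flagged of 20 member and tissue groups, and chance flags about 1 in 20.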

How the results depend on the processing

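With the replicate block left out, 276 genes were higher and 85 lower in epidermis, in place of 155 and 16, and no member was called. The block changed the call of no member. The likelihood ratio test gave 557 higher and 264 lower with 4 members and 2 other pathway genes called, DESeq2 786 and 534 with 5 and 2, and the bias-adjusted quasi-likelihood fit 472 and 161 with 5 and 1. A filter of 10 CPM gave 211 higher and 46 lower of 11407 genes and called 2 members higher, TMM and ERL1. With no filter 213 genes were higher and 31 lower of 22886, and 1 member, ERL1, was called higher. Without each replicate in turn the genes higher in epidermis numbered 55 to 136 and the lower ones 0 to 16, and no member was called. The lowest counts were without replicate 3 (55 and 0, with 1414 genes below 0.05 before adjustment) and without replicate 1 (70 and 6).

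The 9 members tested kept their direction in every setting run, except ICE1 and POLAR without replicate 2. Without 1 replicate the log2 fold change ranged from -0.015 to 0.19 for ICE1, -0.17 to 1.64 for POLAR, -0.37 to 1.38 for BAK1, -0.89 to 0.024 for BSL1, -0.058 to 0.69 for BSL2, -0.39 to 0.023 for BSL3, -0.53 to 1.33 for EPFL4, -0.11 to 1.22 for FLP, -1.86 to 0.24 for MPK3, -0.42 to 1.41 for SCAP1, -0.17 to 0.61 for SERK2 and -1.06 to 0.081 for SOL1, and with no block it was 0.060 for BSL1 and 0.26 for MPK3. The cause was not tested. Among markers, ATML1 lost its call without replicate 1 or 2 (log2 fold change 3.16 and 3.21, against 3.12 with all) and SUC5 without replicate 1, 2 or 3 (1.84, 1.69 and 1.55, against 1.79), while MYB118 gained one without replicate 2 (edgeR adjusted p = 0.0332). Without 1 replicate, 3 libraries against 3 cannot go below an exact p of 0.1. The differences of the summed levels were then 3444 to 4235 CPM for protoderm, 225 to 246 CPM for endosperm, 21.7 to 38.6 CPM for seed coat and -13088 to -9341 CPM for photosynthesis genes. The partner ratios kept their direction with 0 or 1 pair added and without each replicate, and ER over ERL1 ranged from -1.98 to -0.92 without 1 replicate. Depth sets a floor of 3 pairs, 0.0878 to 0.107 CPM, for a library in which a gene had no pair.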

Other observations

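Outside the stomatal lineage, FAMA is known to specify the myrosin cells of the mesophyll as well as guard cells. TGG1, a myrosinase gene of myrosin and guard cells, had 506 to 5295 read pairs in 3 mesophyll libraries and at most 14 in any epidermis library. The mesophyll libraries with TGG1 pairs were replicates 1, 2 and 4, with 506, 5295 and 2468 pairs. FAMA had 92, 2 and 2 pairs in the same 3 libraries and none in replicate 3 or in epidermis. A count of 2 is below the floor of 3 pairs, and FAMA was highest where TGG1 was lowest of these 3. Whether these libraries held myrosin cells was not tested. TGG2, a second myrosinase gene, looked up after these values were seen, had at most 2 pairs in any library. TGG1 reached 1 CPM in too few libraries to be tested. In the edgeR fit with no filter its adjusted p was 0.0173.

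The genes whose log2 level over the 8 libraries was most like the mean of the 9 tested members were FLS1 (Pearson r = 0.97), a flavonol synthase, ACLB-1 (0.97), a subunit of ATP-citrate lyase, AT1G06000 (0.97), the glutamine synthetase gene GLN1;5 (0.96) and the seed maturation factor FUS3 (0.96). These correlations are a description over 8 libraries that all points share, chosen as the highest of many genes. FLS1 averaged 270 ± 175 CPM in epidermis and 50.8 ± 28.9 CPM in mesophyll, and FUS3 144 ± 48.2 CPM in epidermis and 67.9 ± 14.2 CPM in mesophyll (SD, n = 4 each). Of the 5, AT1G06000 was called higher in epidermis by the edgeR quasi-likelihood test (adjusted p = 0.0165), against 0.981% of all genes. The 5 were picked in the same libraries for a profile that was mostly higher in epidermis, so this call is not a separate result.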
